A study of Mus musculus with 6 samples.

Results

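Basal and myoepithelial marker genes were examined in sorted luminal mammary epithelial cells (MECs) of mice made to lose or to retain Runx1 there. Runx1 is a transcription factor gene of the RUNX family. The set holds 10 genes, Acta2, Myh11, Mylk, Cnn1, Tagln, Oxtr, Trp63, Snai2, Cdh3 and Cav1, and was chosen by name, with every probe set that the array annotation assigns to exactly 1 of them. This gave 21 of the 45101 probe sets, and 10 of the 18193 named genes. RNA came from 3 MMTV-Cre;Runx1L/L;R26Y females (Runx1-null) and 3 MMTV-Cre;Runx1+/+;R26Y females (Runx1-WT), adult virgins on a mixed B6/129/FVB background, with 1 Affymetrix Mouse Genome 430 2.0 array per mouse. All 6 mice carried the MMTV-Cre transgene and R26Y, a reporter that turns on YFP in cells where Cre has acted. Runx1L is a floxed allele, so the groups differ in whether Cre could delete part of Runx1. MMTV-Cre is driven by a mammary tumour virus promoter and acts in many luminal cells and in some basal cells, and the cells profiled were YFP+ cells of the luminal gate (Lin-CD24+CD29lo). The lineage antibodies of the study were against CD31, CD45 and TER119, which mark endothelial cells, leukocytes and red cells. Which mice were littermates is not given in the sources used here.

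Myoepithelial cells form the outer, basal layer of the mammary duct and squeeze milk out when oxytocin binds its receptor. Their contractile proteins resemble those of smooth muscle, and many of the genes for these are controlled through CArG boxes, sites for serum response factor (SRF). The basal layer is also known for the p63 transcription factor, the transcriptional repressor Slug, P-cadherin and caveolae, small pits in the cell membrane. Luminal cells line the inside of the duct and carry other keratins, so these genes are used to tell the layers apart.

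Luminal keratins were bright on every array, while basal keratins varied between mice. Intensity, the linear brightness of a probe set, was between 10459 and 12535 for Krt8, between 12516 and 14017 for Krt18 and between 11229 and 12804 for Krt19, all luminal keratins, over the 6 mice. Krt14, a basal keratin, ran from 787 in Runx1-null mouse 3 to 2845 in Runx1-null mouse 2. Sorted basal MECs were not analysed here, so the levels could not be set against those of the cells that these genes mark. In bulk RNA, fewer basal cells and less basal RNA per cell cannot be told apart. The brightest Runx1 probe set was at 4082, 3855 and 2015 in Runx1-WT mice 1 to 3 and at 3473, 4820.02 and 2277 in Runx1-null mice 1 to 3, and for 0 of its 6 probe sets did the genotypes separate. The position of those probes against the deleted part was not analysed, and they are no check of the deletion. By quantitative RT-PCR, the study found Runx1 expression lost in sorted YFP+ MECs of Runx1-null females. In their YFP+ mature luminal cells it was only slightly reduced, and the study proposes that many of these may have escaped excision. Pairs of arrays correlated at 0.947 to 0.985 (Pearson's r on log2 values, over probe sets). Runx1-null mouse 3 had the highest ratio of 3' to 5' signal for the control genes Gapdh, at a log2 difference of 0.61 against 0.46 to 0.55 in the other mice, and beta-actin, at 0.74 against 0.44 to 0.52. It also had the most probe sets below the floor (22.3% against 18.8% to 20.6%). Its median intensity was the lowest, at 106 against 129 to 163 in the other mice.

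Promoter sequence was at hand for 5 of the 10 members (Acta2, Mylk, Cnn1, Oxtr and Cav1), from RefSeq annotation of the GRCm38.p6 build. The 250 bases before the start of 3 of them are shown, since each holds letters of a motif tied to this gene set or to RUNX1. Each reads 5' to 3' on the gene's own strand and ends at the base before the start. Capitals mark CArG-like sites in Acta2, the RUNX core TGTGGT (here on the opposite strand, as ACCACA) in Mylk, and the E-box CAGGTG bound by factors of the Snail and Zeb families (on the opposite strand, as CACCTG) in Oxtr. The windows are chr19:34255374-34255623 (minus strand) for Acta2, chr16:34784700-34784949 (plus strand) for Mylk and chr6:112489826-112490075 (minus strand) for Oxtr.
Acta2: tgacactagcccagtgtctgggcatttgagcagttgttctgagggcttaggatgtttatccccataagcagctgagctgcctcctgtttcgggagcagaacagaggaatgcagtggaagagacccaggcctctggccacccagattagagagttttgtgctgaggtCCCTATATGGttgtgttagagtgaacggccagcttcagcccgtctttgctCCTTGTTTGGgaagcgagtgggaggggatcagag
Mylk: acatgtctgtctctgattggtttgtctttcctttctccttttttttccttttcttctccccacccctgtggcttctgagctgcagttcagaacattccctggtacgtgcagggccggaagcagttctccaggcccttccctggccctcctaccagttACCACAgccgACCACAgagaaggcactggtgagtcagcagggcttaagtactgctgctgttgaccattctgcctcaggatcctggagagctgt
Oxtr: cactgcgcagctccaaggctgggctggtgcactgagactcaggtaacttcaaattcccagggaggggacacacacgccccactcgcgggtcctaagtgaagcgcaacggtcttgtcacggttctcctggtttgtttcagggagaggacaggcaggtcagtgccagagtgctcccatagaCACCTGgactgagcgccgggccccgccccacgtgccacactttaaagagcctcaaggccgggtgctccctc
The Acta2 window held CCCTATATGG from 84 to 75 and CCTTGTTTGG from 34 to 25 bases before the start. Each is a CArG box apart from 1 of its 6 central letters, which is neither A nor T. The search for such imperfect boxes was added after the Acta2 sequence was seen. Over both strands, 7.24% of 32851 promoter windows of this length held at least 1 and 0.548% held at least 2, while a perfect CArG box stood in 1.47% of windows and in none of the members'. The Mylk window held the RUNX core at 93 to 88 and again at 83 to 78 bases before the start. That core was found in 14.05% of windows, and at least 2 copies in 1.27%. The E-box stood 71 to 66 bases before the Oxtr start and in 1 of the 2 Cav1 windows, against 17.2% of all windows. No motif of these kinds was found in the Cnn1 window. A match is a stretch of letters only, and no binding was measured here.

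None of the 5 contractile members differed between the genotypes beyond the spread between mice. By their brightest probe sets, all 5 were at their highest in the same animal, Runx1-WT mouse 3. The dimmer probe sets of Acta2 and Myh11, and the third of Mylk, had their highest value in other mice. The second Mylk probe set was also highest in Runx1-WT mouse 3. Tagln varied the most among them, 7.14-fold between the lowest and the highest mouse. Mylk was lower on average in Runx1-null mice, by 0.59 ± 0.27 (SE, n = 3 mice per genotype) on the log2 scale, with an interval that includes 0. Myh11 and Cnn1 were dim on every array and did not reach the intensity filter used for the tests.

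Acta2 encodes smooth muscle alpha-actin, the actin of the myoepithelial contractile apparatus. Its brightest probe set, 1416454_s_at, stood at 1348, 1005 and 1924 in Runx1-WT mice 1 to 3 and at 1163, 1398 and 1175 in Runx1-null mice 1 to 3. All Runx1-null values lay inside the Runx1-WT range. The means were 1426 ± 464 and 1245 ± 132 (SD, n = 3), a log2 difference, Runx1-null minus Runx1-WT as throughout, of -0.15 ± 0.26 (SE; limma, unadjusted p = 0.58; exact permutation test, two-sided, p = 0.8). With 3 mice against 3, that exact permutation test cannot go below p = 0.1. The suffix _s marks probes shared by several transcripts. A second Acta2 probe set, 1444105_at, read 547, 366 and 157 in Runx1-WT against 582, 461 and 133 in Runx1-null mice, with the lowest value of each genotype in its mouse 3. Its difference was 0.06 ± 0.68 (SE), and over the 6 mice it did not track the first (Pearson's r = -0.34, as a description). The third, 1456658_at, was below the floor of 19.3 on all 6 arrays. The Acta2 probe sets thus give no common order of the mice.

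Mylk encodes myosin light chain kinase, which switches on contraction in smooth muscle. Probe set 1425506_at was at 1146, 789 and 1322 in Runx1-WT mice 1 to 3 and at 562, 796 and 780.5 in Runx1-null mice 1 to 3. Runx1-WT mouse 2 lay among the Runx1-null mice, so the groups overlapped by that mouse alone. The means were 1086 ± 272 and 713 ± 131 (SD, n = 3), 1.51-fold higher in Runx1-WT mice by the difference of the log2 means. The 95% interval of the log2 difference ran from -1.22 to 0.04 (limma, unadjusted p = 0.0629; exact permutation test, two-sided, p = 0.2). The dimmer probe set 1425505_at read 88.1, 86.2 and 164 against 72.2, 70.0 and 117, with Runx1-null mouse 3 above 2 of the 3 Runx1-WT mice, and a difference of -0.36 ± 0.40 (SE). The third Mylk probe set, 1425504_at, was below the filter, between 40.7 and 88.1 over the mice, with a difference of 0.05 ± 0.36 (SE).

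Tagln encodes transgelin (SM22), an actin-binding protein of smooth muscle. Probe set 1423505_at was at 856, 442 and 3156 in Runx1-WT mice 1 to 3 and at 1732, 2202 and 617 in Runx1-null mice 1 to 3. The highest and the lowest mouse were both Runx1-WT, and the Runx1-null mice all lay between them. The means of 1484 ± 1462 and 1517 ± 814 (SD, n = 3) gave a log2 difference of 0.33 ± 0.79 (SE; limma, unadjusted p = 0.69; exact permutation test, two-sided, p = 0.9).

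Myh11, the smooth muscle myosin heavy chain, read 66.4, 55.0 and 86.5 in Runx1-WT against 49.2, 55.2 and 61.1 in Runx1-null mice with probe set 1448962_at. Its difference without the filter was -0.31 ± 0.22 (SE), and its second probe set, 1418122_at, went the other way at 0.26 ± 0.17 (SE) with all values under 31. Cnn1, calponin, which binds actin and tropomyosin, read 24.9, 36.8 and 48.0 against 7.55, 42.0 and 32.1, the first Runx1-null value lying below the floor. Its difference was -0.25 ± 0.39 (SE), and both genes' groups overlapped.

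**Figure D1:**
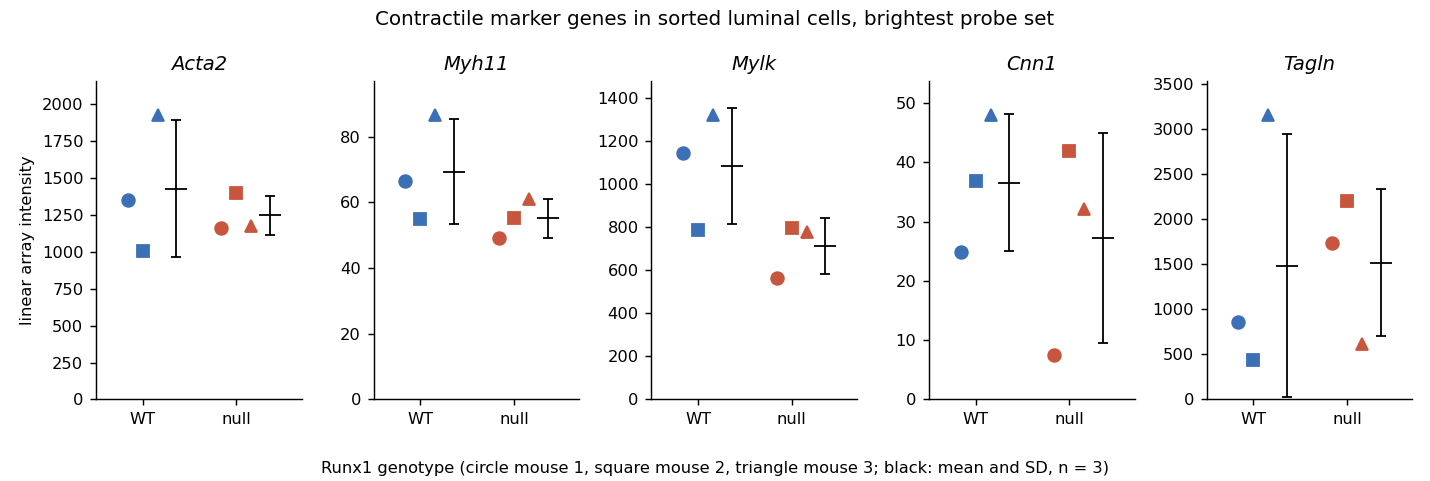
Linear array intensity (vertical axis of each panel) of the brightest probe set of Acta2, Myh11, Mylk, Cnn1 and Tagln in 3 Runx1-WT and 3 Runx1-null mice. Each point is 1 mouse, and the black marks give the mean and SD. The triangle of Runx1-WT mouse 3 is the top point in all 5 panels, with Tagln at 3156 there, and the genotypes overlap in each.

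The other 5 members are a receptor, a pair of transcription factors, a cadherin and a caveola protein. Their probe sets past the filter also did not differ beyond the spread between mice. Oxtr and Trp63 had the largest average differences, both higher in Runx1-null mice. By their brightest probe sets, Snai2 and Cdh3 were lowest in Runx1-null mouse 3, and Oxtr was nearly lowest there. For Trp63 that mouse lay within the Runx1-WT range.

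Oxtr encodes the oxytocin receptor, through which myoepithelial cells are told to contract. Probe set 1440888_at was at 517, 386 and 1798 in Runx1-WT mice 1 to 3 and at 4268, 2395 and 423 in Runx1-null mice 1 to 3. Runx1-null mice 1 and 2 were above every Runx1-WT mouse, while Runx1-null mouse 3 was below 2 of the 3. The highest mouse exceeded the lowest 11.1-fold, a log2 range wider than that of 97.1% of the probe sets past the filter. The means were 900.2 ± 780.0 and 2362 ± 1923 (SD, n = 3), and the log2 difference was 1.20 ± 0.95 (SE), with a 95% interval from -1.07 to 3.46 (limma, unadjusted p = 0.249; exact permutation test, two-sided, p = 0.3). The difference was 2.17 when Runx1-null mouse 3 was left out and 0.50 when Runx1-null mouse 1 was. The second Oxtr probe set, 1426000_at, read 9.59, 18.6 and 53.8 in Runx1-WT against 248, 111 and 21.7 in Runx1-null mice, the first 2 values lying below the floor. It ordered the mice much as the first did (Pearson's r = 0.97 over 6 mice, as a description), and its difference was 1.63 ± 0.94 (SE; exact permutation test, two-sided, p = 0.2). Its mean passed the filter through the Runx1-null mice alone, at 127 against 27.3 in Runx1-WT mice. It is therefore no separate support for the first probe set.

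Trp63 encodes p63, needed to form and keep the basal layer of stratified and glandular epithelia. Probe set 1418158_at was at 1179, 959 and 844 in Runx1-WT mice 1 to 3 and at 1832, 3006 and 965 in Runx1-null mice 1 to 3. The 3 Runx1-WT mice lay close together, and Runx1-null mouse 3 was among them. The means were 994 ± 170 and 1935 ± 1024 (SD, n = 3), and the log2 difference of 0.83 ± 0.41 (SE) had a 95% interval from -0.15 to 1.80 (limma, unadjusted p = 0.0837; exact permutation test, two-sided, p = 0.2). Leaving out Runx1-null mouse 2 gave 0.43, and leaving out Runx1-null mouse 3 gave 1.25. The dim probe set 1452027_a_at, which did not pass the filter and whose suffix marks alternative transcripts of 1 gene, read 37.9, 30.0 and 31.8 in Runx1-WT against 62.3, 58.1 and 38.7 in Runx1-null mice. It was the only 1 of the 21 probe sets whose groups did not overlap, by under 1 intensity unit, beside 4.29% of all probe sets without the filter. Its difference was 0.65 ± 0.22 (SE; limma without the filter, unadjusted p = 0.0328, a level under 0.05 that 2.32% of all probe sets reached there; exact permutation test, two-sided, p = 0.1). The remaining probe sets, 1451876_a_at and 1459581_at, were below the floor on 5 and 6 arrays.

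Snai2 encodes Slug, a repressor of epithelial genes that is found in basal MECs. Probe set 1447643_x_at, some of whose probes resemble other sequences, read 102, 89.9 and 133 in Runx1-WT against 121, 154 and 81.2 in Runx1-null mice, a difference of 0.10 ± 0.35 (SE). Runx1-null mice held both the highest and the lowest value. The dimmer 1418673_at gave -0.04 ± 0.45 (SE), and 0.05 after either quantile normalization or median scaling.

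Cdh3 encodes P-cadherin, a cadherin of the basal layer. Probe set 1426673_at read 83.6, 70.9 and 111 in Runx1-WT mice 1 to 3 and 121, 147 and 40.6 in Runx1-null mice 1 to 3, a difference of 0.04 ± 0.54 (SE). Here too the extremes were both Runx1-null. A second probe set below the filter, 1441255_at, read 97.2, 103 and 35.8 against 52.5, 53.2 and 52.3, and its difference of -0.43 ± 0.46 (SE) had the other sign.

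Cav1 encodes caveolin-1, the scaffold of caveolae. Its probe set 1449145_a_at was at 3850.35, 6785 and 1572 in Runx1-WT mice 1 to 3 and at 2746, 2804 and 4163 in Runx1-null mice 1 to 3. The 3 Runx1-null mice lay inside the Runx1-WT range, and its highest mouse, Runx1-WT mouse 2, was the lowest mouse for Acta2, Tagln and Oxtr. The means of 4069 ± 2614 and 3238 ± 802 (SD, n = 3) gave a difference of -0.12 ± 0.51 (SE; exact permutation test, two-sided, p = 1).

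**Figure D2:**
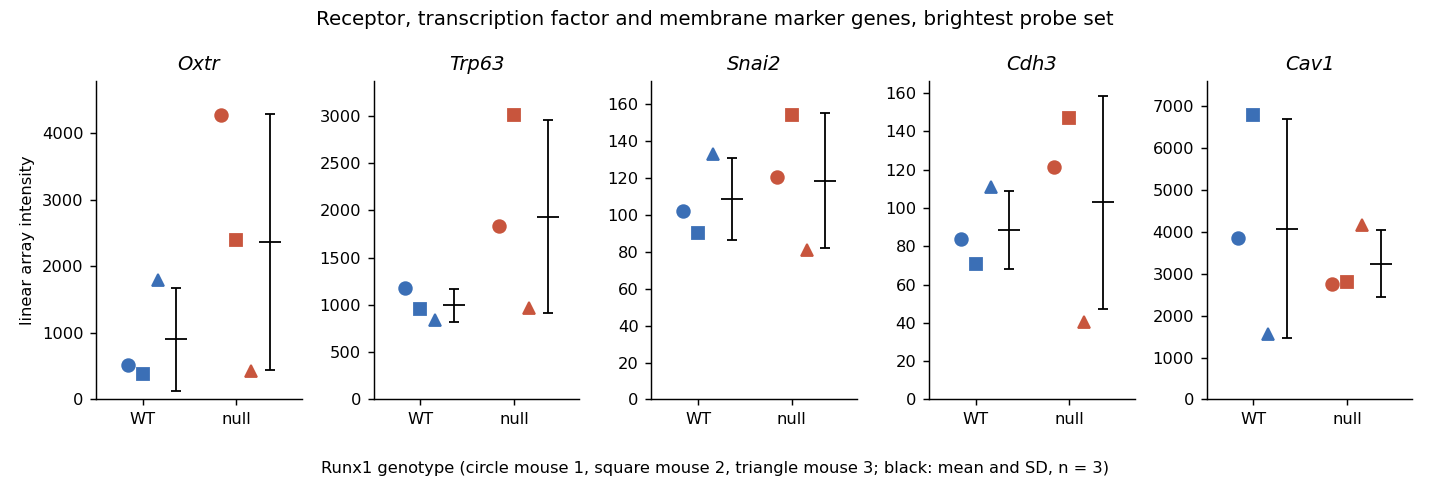
Linear array intensity (vertical axis of each panel) of the brightest probe set of Oxtr, Trp63, Snai2, Cdh3 and Cav1 in 3 Runx1-WT and 3 Runx1-null mice, with 1 point per mouse and the mean and SD in black. Oxtr spans 386 to 4268, with Runx1-null mouse 3 (triangle) at 423, and the genotypes overlap in each panel.

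Across the set, 11 probe sets of 8 genes passed the filter, a mean intensity at or above 73.5. Of these 11, 0 were called at an adjusted p under 0.05 (limma with Benjamini-Hochberg adjustment over all 27025 probe sets tested), where the share called over all probe sets was 0%. At an unadjusted p under 0.05 the count was also 0 of 11, beside 1.33% of all tested probe sets, and the methods' t-test called 0 after adjustment. For 0 of 11 did the genotypes separate without overlap, beside 4.85% of all. Differences were above 0 for 7 of the 11 and below 0 for 4, with a median of 0.06, while 40.8% of all tested probe sets were above 0 with a median of -0.04. The 7 include the second Oxtr probe set, which passed the filter through the Runx1-null mice alone. Counts by direction over all probe sets moved with the scaling: of those with an unadjusted p under 0.05, 34.2% were higher in Runx1-null mice as deposited, 48.6% after quantile normalization and 56.3% after median scaling. With 1 probe set per member and no filter, the median of the 10 was -0.04, and it was 0.01 and 0.05 under those scalings. Standard errors over the 11 ran from 0.26 for Acta2 to 0.95 for Oxtr. With Runx1-null mouse 3 left out, whose 3' to 5' ratios were the highest, the median of the 10 turned to 0.12. The same omission gave 0.88 for Tagln, 0.35 for Snai2, 0.62 for Cdh3 and -0.31 for Cav1. It gave 0.71 for the second Acta2 probe set, -0.60 for the second and -0.14 for the third of Mylk, 2.61 for the second of Oxtr and 0.31 for the dimmer of Snai2.

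**Figure D3:**
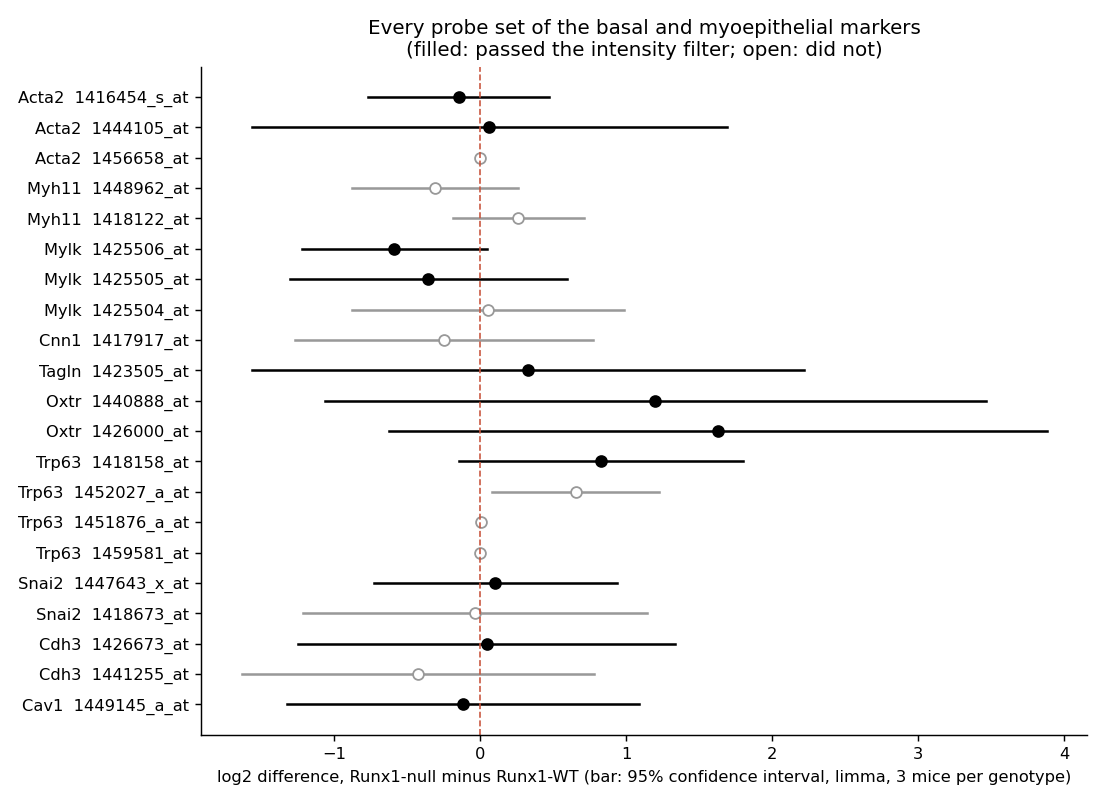
Log2 difference in intensity, Runx1-null minus Runx1-WT (horizontal axis), for the probe sets of the 10 genes (vertical axis). Points are limma estimates and bars 95% confidence intervals from 3 mice per genotype. The interval includes 0 for all 11 probe sets that passed the filter (filled), the widest being those of Oxtr and Tagln, and of the open points, which did not pass, only that of the dim Trp63 probe set lies off 0.

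The members did not vary as a single block over the mice. Averaged over the 5 contractile genes, the deviation from each gene's own mean was 0.73 log2 units in Runx1-WT mouse 3, 0.22 in Runx1-null mouse 2, -0.06 in Runx1-WT mouse 1, -0.25 and -0.26 in Runx1-null mice 3 and 1, and -0.38 in Runx1-WT mouse 2. Averaged over the other 5 genes it was 0.66 in Runx1-null mouse 2 and 0.56 in Runx1-null mouse 1, between -0.08 and -0.30 in the 3 Runx1-WT mice, and -0.61 in Runx1-null mouse 3. In Runx1-WT mouse 3 that average hid opposite signs. Oxtr, Cdh3 and Snai2 were at 0.74, 0.33 and 0.26 there, and Trp63 and Cav1 at -0.64 and -1.07. The contractile average was 0.20 lower and the other average 0.41 higher in Runx1-null mice, and each genotype's mice overlapped with the other's in both. Myh11 and Cnn1, below the filter, count in the contractile average. The other average came mostly from Oxtr (1.20) and Trp63 (0.83), beside 0.10 for Snai2, 0.04 for Cdh3 and -0.12 for Cav1. Without Runx1-WT mouse 3 the contractile average was 0.12 higher in Runx1-null mice, and without Runx1-null mouse 3 the other average was 0.82 higher.

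Basal keratins, which are no members, varied on the same scale. Krt17 read 598, 414 and 2110.01 in Runx1-WT mice 1 to 3 and 2761, 1679.85 and 446 in Runx1-null mice 1 to 3, the same 3 mice being high as for Oxtr. Krt14 read 1598, 1125 and 2348 against 2292, 2845 and 787, and its lowest mouse was Runx1-null mouse 3. Krt5 read 146, 209.9 and 263 against 201, 628 and 123. Its highest mouse was Runx1-null mouse 2, as for Trp63, Snai2 and Cdh3.

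**Figure D4:**
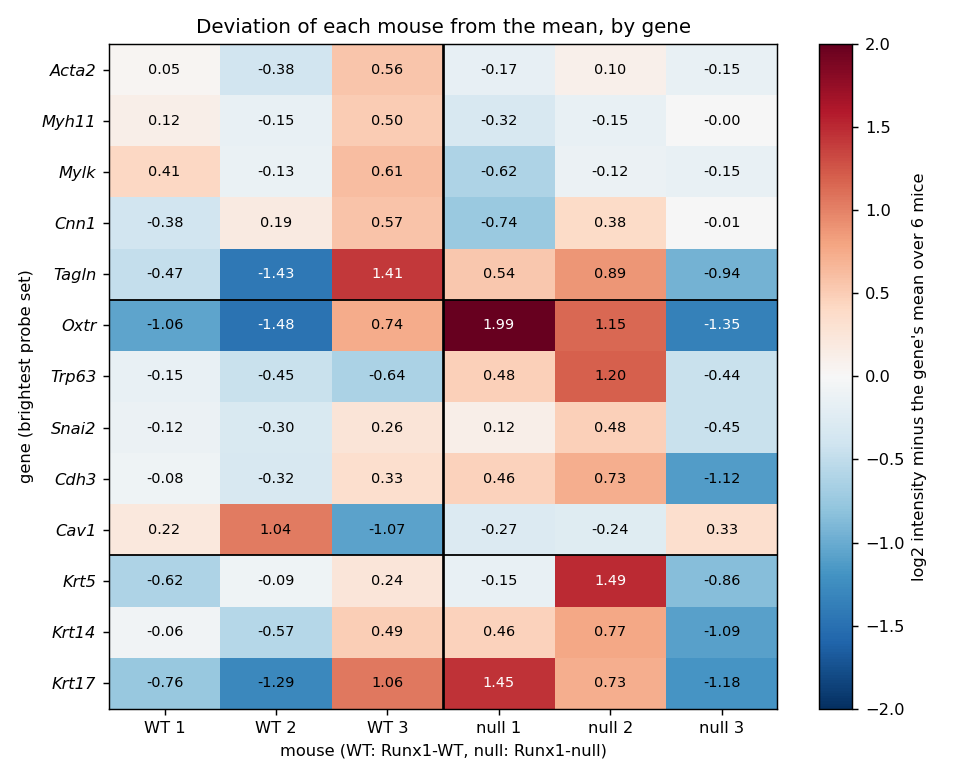
Deviation of each mouse's log2 intensity from the gene's mean over 6 mice (colour), for the brightest probe set of each gene (rows) in each mouse (columns). All 5 contractile members are highest in Runx1-WT mouse 3, where Tagln is 1.41 above its mean, while Oxtr runs from -1.48 in Runx1-WT mouse 2 to 1.99 in Runx1-null mouse 1.

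The titles carry animal numbers that fall in a lower range (Runx1-WT mice 1 and 2, Runx1-null mice 1 and 2) and an upper range (mouse 3 of each genotype). No label calls these ranges a batch. For 8 of the 11 tested probe sets the difference had opposite signs in the 2 ranges. The same share over all tested probe sets was not computed, so this count cannot be called particular to the members. The Oxtr difference was 2.84 log2 units in the lower range and -2.09 in the upper, that of Tagln 1.67 and -2.35, and that of Cdh3 0.79 and -1.45. Cav1 went from -0.88 in the lower range to 1.41 in the upper. Mylk kept its sign, at -0.51 and -0.76, as did Trp63, at 1.14 and 0.19. Within the lower range the genotypes separated upward for 6 of 11 probe sets and downward for 2, beside 23.1% and 22.2% of all tested probe sets with 2 mice against 2. An unadjusted p under 0.05 was reached by 6 of 11 there, beside 11.4% of all, and the smallest adjusted p was 0.376 (limma). Both Oxtr probe sets are among the 6 in each count, the second having passed the filter through the Runx1-null mice alone. The upper range holds 1 mouse per genotype and gives no test. With the range as a block, 2 of 11 reached an unadjusted p under 0.05 in limma, beside 2.21% of all. These were Mylk (limma, unadjusted p = 0.0492) and Trp63 (limma, unadjusted p = 0.0318), and 0 of 11 passed after adjustment.

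Genes that work with the members were read from lists of contractile, signalling and adhesion genes, and 0 genes of any list passed the adjusted threshold (limma). Over all 12151 genes past the filter, 5413 (44.5%) were above 0 and the median difference was -0.02. In the contractile apparatus list, 18 of 22 genes passed the filter, 10 above and 8 below 0, with a median of 0.08 that ran from 0.00 to 0.14 as each mouse was left out. Its first genes, Actg2 (enteric smooth muscle actin), Myl9 (a myosin light chain) and Tpm1 (a tropomyosin), differed by -0.15 ± 0.40, -0.24 ± 0.38 and 0.02 ± 0.08 (SE). Actg2 and Myl9 were both highest in Runx1-WT mouse 3, at 249 and 358, as the contractile members were. Of the SRF and RhoA regulators, 4 of 5 were above 0, with Srf itself at 1809.98, 2057 and 1052 in Runx1-WT against 1371, 3067 and 1052 in Runx1-null mice, a difference of 0.06 ± 0.44 (SE). Mrtfa, a co-activator of SRF, differed by 0.16 ± 0.26 (SE), and Myocd, the smooth muscle co-activator, was below the filter.

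Downstream of the oxytocin receptor, 8 of 9 signalling genes were below 0, the median being -0.13, or -0.05 and -0.06 with Runx1-WT mouse 1 or 2 left out. That median also moved with the scaling, to -0.10 after quantile normalization and -0.04 after median scaling. The G protein subunit genes Gnaq and Gna11 differed by -0.02 ± 0.12 and -0.07 ± 0.14 (SE), and Plcb1, a phospholipase C, by -0.49 ± 0.38 (SE). Gnaq lay between 1911 and 2168 in all 6 mice, while Plcb1 ran from 210.2 to 645. The gene of the list that ranged most, Rgs2, a regulator of G protein signalling named after its values were seen, ran from 566 in Runx1-null mouse 2 to 2267 in Runx1-WT mouse 3. Of the basal keratin and adhesion genes, 13 of 21 were above 0 with a median of 0.04, turning to -0.09 without Runx1-WT mouse 2. Among transcription factors of epithelial-mesenchymal transition related to Snai2, 4 passed the filter and 3 were below 0, with a median of -0.30 that turned to 0.08 without Runx1-null mouse 3. Snai3 differed by 0.13 ± 0.35 and Twist1 by -0.37 ± 0.41 (SE), and Snai1 did not pass the filter. Cdh1, which encodes E-cadherin, differed by -0.01 ± 0.06 (SE) and lay between 10199.9 and 11407 in every mouse, beside the 3.62-fold range of Cdh3. Ctnna1, alpha-catenin, differed by 0.07 ± 0.06 (SE), and Cdh2, N-cadherin, did not pass the filter. The list of cadherins and catenins had a median of 0.00. Of 5 caveola genes, 3 were above 0, and their median of 0.24 became -0.02 when Runx1-WT mouse 3 was left out. Cav2, the partner of caveolin-1, read 7209.92, 7957 and 4786 in Runx1-WT against 5354, 6174 and 6592 in Runx1-null mice, with its extremes in the same mice as those of Cav1. Cavin1, a coat protein of caveolae, also had both extremes there, at 1438 and 668, and a difference of -0.10 ± 0.30 (SE). Cavin2, another coat protein, went the other way at 0.43 ± 0.24 (SE) and was highest in Runx1-null mouse 1, at 4474.

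Several members are also expressed by other contractile or stromal cells. Markers of pericytes and vascular smooth muscle were below 0 for 6 of 7 genes past the filter, the median being -0.31, or -0.17 with Runx1-null mouse 1 left out. Rgs5, a defining pericyte gene, read 1532, 1005 and 1480.3 in Runx1-WT against 940.4, 658 and 213 in Runx1-null mice (-1.37 ± 0.55, SE). Pdgfrb, a growth factor receptor of pericytes, differed by -0.42 ± 0.31 (SE), and Cspg4 did not pass the filter. The summed intensity of the list was 6867 to 8333 in Runx1-WT against 6462 to 6911 in Runx1-null mice. Notch3, named after its values were seen, was the largest part of that sum, at 3315 to 4145 over the mice. It differed by -0.04 ± 0.11 (SE). The lineage gate is meant to remove endothelial cells and leukocytes. Endothelial markers were below 0 for 11 of 11, with a median of -0.47 and sums of 2569.8 to 3338 and 1859 to 2489. Pecam1, which encodes the CD31 used in that gate, was between 82.1 and 136 over the mice and differed by -0.21 ± 0.35 (SE), Kdr by -0.70 ± 0.33 (SE), and Cdh5 did not pass the filter. Fibroblast and matrix markers were below 0 for 16 of 16 with a median of -0.64, and -0.23 without Runx1-null mouse 3, with sums of 17814 to 22130 and 7151 to 18282. The collagen genes Col1a1, Col1a2 and Col3a1 differed by -0.64 ± 0.47, -0.82 ± 0.41 and -0.58 ± 0.35 (SE). Adipocyte markers were below 0 for 4 of 4, though Adipoq and Lep did not pass the filter (sums of 3999.7 to 4689.9 and 2778 to 4004) and leukocyte markers for 6 of 7 (sums of 1305 to 4655 and 1106 to 1933). Fabp4, also named after its values were seen, was the largest part of the adipocyte sum, at 1913 to 3395 over the mice. The leukocyte sum of 4655 was that of Runx1-WT mouse 3, the highest mouse of the contractile members. The leukocyte median turned from -0.22 to 0.40 without that mouse and was -0.48 without Runx1-null mouse 3. Cd3e, a T cell gene, read 294 in Runx1-WT mouse 3 and between 22.05 and 46.5 in the others (-0.59 ± 0.99, SE). Ptprc, which encodes the CD45 of the gate, and Cd3g did not pass the filter, and Ptprc read 205 in that mouse and between 18.3 and 47.4 in the others. In each of these lists, 0 markers were below the floor on all arrays. Luminal markers were above 0 for 7 of 12, with a median of 0.04 and sums of 82214 to 94714 and 78142 to 100490, and the median was -0.02 or -0.05 with mouse 3 of Runx1-WT or of Runx1-null left out. This list pools markers of luminal progenitors and of mature luminal cells, so its median cannot show a shift between them. The part of these cells in the members' values was not tested.

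**Figure D5:**
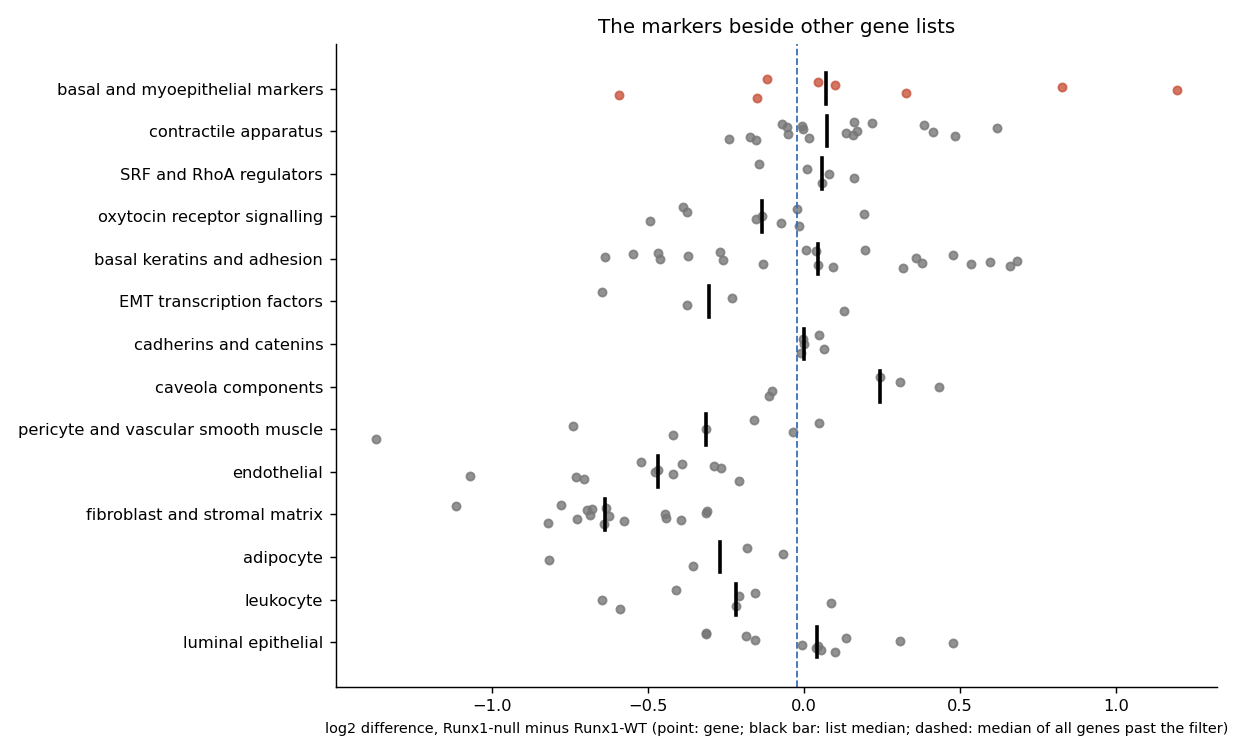
Log2 difference, Runx1-null minus Runx1-WT (horizontal axis), of each gene past the filter in the basal and myoepithelial set and in lists of related genes and of other cell types (vertical axis). Points are genes, black bars list medians, and the dashed line the median of all genes past the filter (-0.02). Medians of the related lists run from -0.30 to 0.24, while all 16 fibroblast and all 11 endothelial markers lie below it.

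Of 3764 other genes that ranged over at least 1 log2 unit, 52 (1.38%) followed the average of the 5 contractile members with Pearson's r over 0.9 across the 6 mice, as a description. The closest were Tnc, which encodes the matrix protein tenascin C (r = 0.999), Fcsk, a fucose kinase (0.993), Gm128 (0.980), Otop1, a proton channel (0.972), and Hspb2, a small heat shock protein of muscle (0.960). Tnc read 127, 80.1 and 376 in Runx1-WT mice 1 to 3 and 89.0, 174 and 93.8 in Runx1-null mice 1 to 3. Each of the 5 was highest in Runx1-WT mouse 3 and lowest in Runx1-WT mouse 2, as the contractile average was.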

How the data were processed

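RNA of YFP+ luminal MECs from 6 mice (3 per genotype, grouped by the genotype label) was amplified (NuGEN Ovation V2) and hybridised by the study's core facility to 1 array each. The authors deposited linear intensity values for 45101 probe sets, normalized across arrays with dChip, whose version and model are not given in the sources used here. Precision is set by the number of arrays, since intensities are not counts. Probe sets were named from the platform annotation: 34958 had 1 symbol, 932 several and 9211 none. The members and all gene lists were chosen with earlier results of these data known.

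A floor of 19.3, the 20th percentile of all values pooled, was applied before log2. The 27025 probe sets whose mean reached the 40th percentile (73.5), without 64 control probe sets, entered limma 3.58.1 under R 4.3.3 (lmFit and a trended eBayes), and a call needed a Benjamini-Hochberg adjusted p under 0.05. Members below the filter were read from the same fit without it. Single probe sets also had an exact two-sided permutation test over mice. A gene in a list was represented by its brightest probe set. The code was tested on simulated data.

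Named genes are all 10 members, the first 3 genes of each list (Plin1, among the first adipocyte markers, had no probe set named here) with any that passed the adjusted threshold, and the 5 genes most like the contractile average. The alternatives changed the filter (none, or the 60th percentile), the scaling (quantile or median), the floor (a pseudocount of 5.04 instead), the mice (each left out in turn, or each range of animal numbers by itself), the model (that range as a block, other variance models, the t-test that the methods name) and the probe sets (1 per gene).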

Additional observations from a re-analysis of the deposited data

How the results depend on the processing

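No probe set, of the members or of all tested, was called at an adjusted p under 0.05 under any of the 17 alternatives run with a test across probe sets (limma, and the methods' t-test on the same values). At an unadjusted p under 0.05 the count over all probe sets was 360 in the reported fit, 614 by the methods' t-test, 598 with a block for the range of animal numbers, 3070 in the lower range alone, 1044 without the filter and 199 after median scaling. Leaving out 1 mouse gave 115 to 1341, the highest without Runx1-WT mouse 3. Of 541 differences recomputed under an alternative, 67 had the opposite sign to the reported value. Many of the 541 could not change. For a single probe set, the filter, the block, the variance models and the t-test leave the difference as it was. Probe sets with a reported difference of 0 were counted as keeping their sign. The 67 is therefore no measure of how stable the signs are.

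In the upper range alone (1 mouse against 1, no test) the median over the 10 members moved from -0.04 to -0.71, the contractile average from -0.20 to -0.98 and the average of the other 5 from 0.41 to -0.53. Leaving out each mouse in turn, these ran from -0.17 to 0.16, from -0.43 to 0.12 and from 0.18 to 0.82. Acta2 turned to 0.092 without Runx1-WT mouse 3 and to 0.13 in the lower range alone, and its second probe set to -0.44, -0.35 and -0.18 without Runx1-WT mouse 3, Runx1-null mouse 1 and Runx1-null mouse 2. Without Runx1-WT mouse 2, Tagln turned to -0.30, Snai2 to -0.02, Cdh3 to -0.10 and Cav1 to 0.37. Without Runx1-null mouse 2, Tagln turned to -0.04, Snai2 to -0.11 and Cdh3 to -0.31, and without Runx1-null mouse 1 Cdh3 turned to -0.17. Over the mice left out, Acta2 ran from -0.38 to 0.092 and its second probe set from -0.44 to 0.71, Tagln from -0.30 to 1.11, Snai2 from -0.11 to 0.35, Cdh3 from -0.31 to 0.62, Cav1 from -0.69 to 0.37, Mylk from -0.81 to -0.43, Oxtr from 0.50 to 2.17 and Trp63 from 0.43 to 1.25. The cause of these changes was not tested. No paired analysis was possible because the labels number no replicates and do not say which mice shared a litter.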
